A study of Mus musculus with 11 samples.

Results

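The adenylyl cyclases make cyclic AMP (cAMP) and the phosphodiesterases break down cAMP and cyclic GMP (cGMP). Their genes were followed in nuclei of mouse trigeminal neurons, across neuron classes and after nerve or skin injury. A gene was a member when its symbol was Adcy followed by a number, or Pde followed by a number and a letter from a to h, and when it had at least 50 unique molecular identifiers (UMIs, each standing for 1 captured RNA molecule) over the 10x tables. Of 24243 symbols listed in the deposited tables, 34 matched the names and 32 passed, namely 9 adenylyl cyclases (Adcy1, Adcy2, Adcy3 and Adcy5 to Adcy10) and 23 phosphodiesterases. Adcy4 (23 UMIs) and Pde2a (22 UMIs) did not pass.

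Adenylyl cyclases sit mostly in the plasma membrane and turn ATP into cAMP when the G protein subunit Gs activates them, and the G proteins of the Gi family inhibit several of them. Adcy10 codes a soluble form driven by bicarbonate and calcium. In sensory neurons cAMP acts through protein kinase A, the exchange factors called Epac and channels gated by cyclic nucleotides, and it is known for sensitizing nociceptors and for its part in axon growth. Phosphodiesterases end these signals: the PDE4, PDE7 and PDE8 families act on cAMP, PDE5, PDE6 and PDE9 act on cGMP, and PDE1, PDE2, PDE3, PDE10 and PDE11 act on both. PDE1 enzymes are switched on by calcium and calmodulin.

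The study took nuclei from the ganglia of wildtype C57BL mice (C57BL/6NCrl in the study's methods) of 6 weeks or older without surgery (control), at days 2, 7, 21 and 75 after the superficial branches of the infraorbital nerve were cut (IOT; the ganglion on the cut side), and at day 2 after cuts to the facial skin (facial injury). A further library came from mice of mixed FVBN, C57BL and 129 background, double heterozygous for Fos-tTA and a tetO-driven mCherry-2A-Gnaq mutant that is constitutively active; these animals scratch and were chosen for visible lesions on the head and neck (scratch lesions), so genotype and lesion cannot be told apart in it. Ganglia of several male and female mice were pooled into each library, nuclei were enriched with anti-NeuN beads, and the authors removed non-neuronal clusters before deposit. There was 1 10x library for each of the 7 groups, and a Drop-seq table of the control pooled 4 libraries.

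The 7 10x libraries held 3634 to 8660 nuclei with a median of 1747 to 4178.5 UMIs a nucleus, 37181 nuclei and 125246745 UMIs in all, and 781 barcodes occurred in more than 1 of them. Levels are given as CPM, the counts of a summed group of nuclei scaled to 1000000 UMIs. Nuclei were placed in 8 classes named by a marker gene: Trpm8, Cdh9, Cadps2, Tac1, Il31ra, Mrgpra3, Mrgprd and a large class set by S100b, Nefh and Ntng1; 65.4% of the nuclei found a class. Of 29 measured genes that had not set the classes, 26 were higher in their own class in every library and 25 by over 2-fold at the median. The exceptions were Penk, near 0 in the Trpm8 class and higher there in 3 of 7 libraries, Mrgprb4, listed in 2 libraries and higher in 1 for the Mrgpra3 class, Fat3 (1.07-fold, large class), Scn1a (1.80-fold, large class) and Moxd1 (1.83-fold, Mrgpra3 class). Injured nuclei were marked by at least 2 UMIs of Atf3 and Sema6a together, both induced in damaged neurons, and unmarked nuclei had none; no cyclase or phosphodiesterase took part in either rule. Marked nuclei made up 8.31 to 17.9% of each IOT library, 2.32% after facial injury, 4.10% with scratch lesions and 2.56% in the 10x control, and their median UMI count (2257 to 5700.5) was above that of unmarked nuclei (1689 to 3925) in every library. At least 1 Atf3 UMI was found in 580, 410, 299 and 141 nuclei at IOT days 2, 7, 21 and 75. Marked nuclei numbered 826, 434, 366 and 302, so most of those at day 75 carried Sema6a without Atf3. The study's injured clusters were a smaller share of that library.

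Atf3, the gene of the mark, codes a factor of the CREB and AP-1 family, whose binding letters are TGACGTCA (the cAMP response element), its core TGACG and the AP-1 form TGANTCA. These letters were searched on both strands in the 250 bases before each listed gene start in RefSeq (GRCm38.p6), where 23 member genes had 43 such windows. The cAMP response element was in none of the members' windows, against 1.55% of all 32851 windows, its core was in 16.3% against 17.8%, and the AP-1 letters were in 9.30% against 6.75%. Every full element also holds the core. Windows that overlapped no exon of the gene are printed for 3 members whose levels differed between marked and unmarked nuclei, 5′ to 3′ on the gene's strand, with AP-1 letters in capitals. Pde1c (chr6:56369635-56369884, minus strand) holds them 246 bases before this start, Adcy7 (chr8:88288816-88289065, plus strand) 24 bases before it, and Pde11a (chr2:76338939-76339188, minus strand) not in this window. The windows at other listed starts of Pde1c and Adcy7, which are not printed, hold no AP-1 letters. Nor do any windows of Pde1a, Adcy5, Pde4c and Pde8b, whose levels also differed between marked and unmarked nuclei.
Pde1c: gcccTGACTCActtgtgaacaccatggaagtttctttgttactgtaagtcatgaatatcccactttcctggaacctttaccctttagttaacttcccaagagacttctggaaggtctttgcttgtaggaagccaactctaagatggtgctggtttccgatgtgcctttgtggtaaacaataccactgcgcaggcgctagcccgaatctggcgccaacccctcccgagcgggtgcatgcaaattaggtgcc
Adcy7: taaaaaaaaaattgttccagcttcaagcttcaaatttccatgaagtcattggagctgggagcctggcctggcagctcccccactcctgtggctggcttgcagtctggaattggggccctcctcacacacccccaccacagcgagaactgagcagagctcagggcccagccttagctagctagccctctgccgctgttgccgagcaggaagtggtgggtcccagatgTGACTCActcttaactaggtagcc
Pde11a: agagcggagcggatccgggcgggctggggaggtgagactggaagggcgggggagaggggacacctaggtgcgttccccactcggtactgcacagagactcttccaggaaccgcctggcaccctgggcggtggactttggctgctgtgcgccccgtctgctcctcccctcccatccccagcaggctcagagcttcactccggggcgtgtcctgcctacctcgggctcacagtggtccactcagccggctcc
A match describes letters in a window and is no evidence of binding.

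Members took 321182 UMIs, or 0.256% of all, and Pde4d, Pde4b, Pde1c and Pde11a held 66.4% of these. Reads in introns were counted. The members span 5.896 kb (Pde6g) to 1503.51 kb (Pde4d), and over the 32 genes CPM and gene span had a Spearman rho of 0.69. On CPM per kb of span, Pde6d, whose product carries lipid-modified proteins, was highest (1.11), followed by Pde4b (1.03), Pde1c (0.7095), Adcy6 (0.651) and Adcy9 (0.643). Pde4d, first by CPM, was at rank 10 on this scale (0.418), and Pde9a was lowest (0.0155). Annotated genes overlapped 8 members on the same strand and 19 on the opposite strand, and UMIs of shared stretches may belong to those neighbours.

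Class differences were read in unmarked nuclei, as the level of a class against the mean of the 7 other classes within libraries. Of 28 members with enough counts, 27 differed in at least 1 class, a share to be read against 87.8% of all 11945 genes tested. Over member and class pairs, 137 of 224 passed (67 higher, 70 lower), whereas 41.0% of all 95560 pairs passed (21.2% higher, 19.7% lower). The median absolute log2 difference was 0.51 for member pairs and 0.24 for all pairs. Adjusted p-values here come from edgeR's quasi-likelihood test over all genes and classes together. Pde6b, the beta subunit of the rod enzyme, passed in no class, and Pde1b, Pde6g, Pde6h and Pde9a had too few counts to test.

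**Figure D1:**
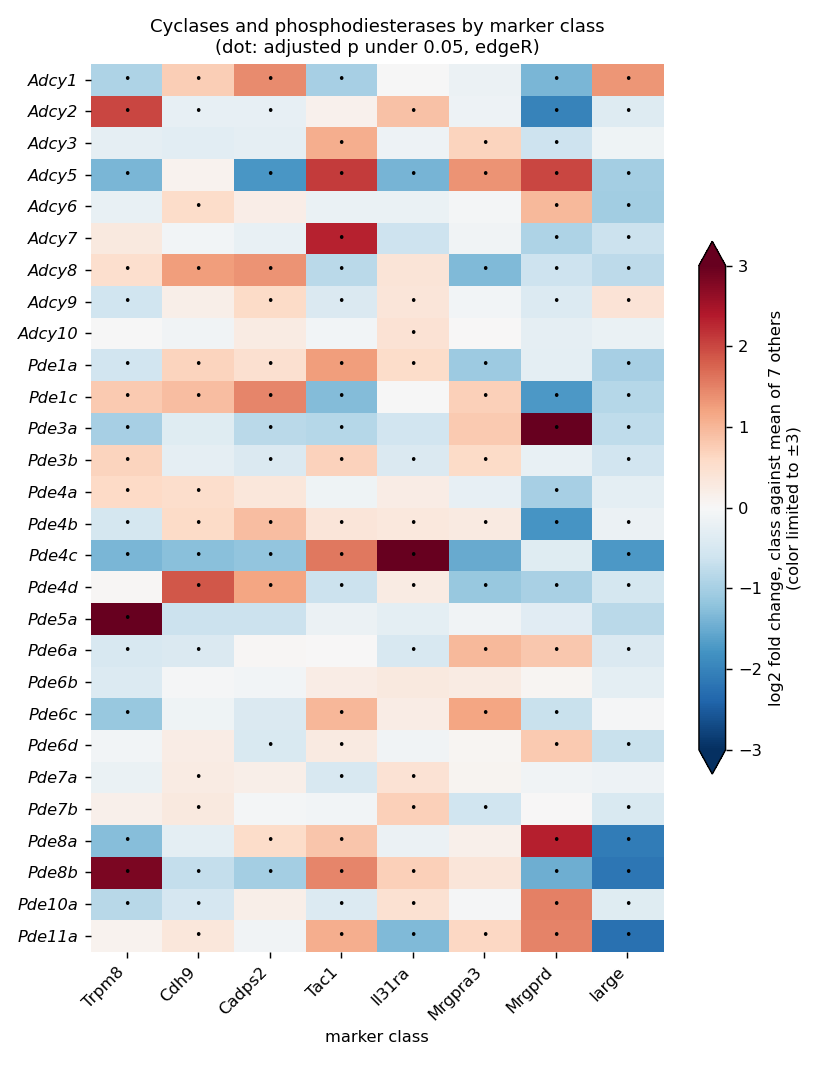
Fitted log2 difference of each marker class (columns) from the mean of the 7 other classes for the 28 tested members (rows), as colour limited to ±3, with a dot where the edgeR adjusted p passed. Pde4c stands out in the Il31ra class, Pde3a in the Mrgprd class, and Adcy2, Pde5a and Pde8b in the Trpm8 class.

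Among the cyclases, Adcy2, which is stimulated by G protein beta-gamma subunits, was highest in the Trpm8 class, named for the cold-activated channel. Its level there ran from 320 CPM at IOT day 7 through a median of 390 to 534 CPM in the control. The Il31ra class came second at 178 to 268 CPM, so the 2 classes did not overlap in any library, and the Mrgprd class was lowest with a median of 38.5 CPM. Adcy2 was higher in the Trpm8 class by 2.01 ± 0.07 on the log2 scale (± SE, 7 libraries; edgeR adjusted p = 4.29e-37), and Drop-seq gave 397 CPM in that class.

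Adcy7, another cyclase that answers beta-gamma subunits, was the cyclase most restricted to the Tac1 class, whose marker is the substance P gene. The lowest library had 19.3 CPM there (scratch lesions), the median was 36.0 and the highest 45.4 CPM (control), while the next class, Trpm8, reached 16.3 CPM at most. The difference was 2.31 ± 0.14 (log2; edgeR adjusted p = 4.11e-24). Adcy5, a cyclase inhibited by Gi and calcium, was also highest in the Tac1 class (83.2, 106 and 139 CPM as lowest, median and highest), but its range overlapped that of the Mrgprd class (61.1, 92.6 and 126 CPM). Both classes were higher than the rest, by 2.09 ± 0.09 and 2.01 ± 0.10, and the Cadps2 class was lowest with a median of 8.67 CPM. Adcy3, known from olfactory cilia, had its highest median in the Tac1 class too, at 28.5 CPM (1.09 ± 0.13).

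The calcium-stimulated cyclases had another layout. Adcy1 was highest in the large class (71.2, 86.1 and 104 CPM as lowest, median and highest) and the Cadps2 class (65.0, 82.5 and 111 CPM), whose ranges overlapped. Both were called higher, by 1.32 ± 0.08 and 1.42 ± 0.09, and the Mrgprd class had the lowest median, 13.9 CPM. Adcy8 led in the Cadps2 and Cdh9 classes, with medians of 40.4 and 35.3 CPM and differences of 1.35 ± 0.14 and 1.25 ± 0.14. Cadps2 nuclei are set by Ntrk2, a receptor gene of touch neurons, and Cdh9 nuclei by Fam19a4, a gene of low-threshold C fibres. Adcy9, a widely used cyclase, was spread most evenly of the plasma membrane forms: its highest and lowest medians were 118 CPM (Cadps2 class) and 56.3 CPM (Trpm8 class). Adcy6, like Adcy5 inhibited by Gi and calcium, was highest in the Mrgprd class (27.5 CPM; 0.98 ± 0.11). The soluble form Adcy10 had its only call in the Il31ra class (0.44 ± 0.14; edgeR adjusted p = 0.00913), which was lost without the control library and turned to −1.05 when Htr1f was left out of that class's markers. Its level varied more between libraries than that (15.2 to 81.1 CPM within the class).

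Of the calcium and calmodulin family, Pde1c was highest in the Cadps2 class (651, 882 and 1024 CPM as lowest, median and highest) and then in the Cdh9 class (521, 603 and 731 CPM). It was lowest in the Mrgprd (median 129 CPM) and Tac1 (155 CPM) classes, which do not overlap the Cadps2 class in any library. Pde1a, in contrast, was highest in the Tac1 class (19.8, 28.5 and 45.4 CPM; 1.26 ± 0.14). The third member, Pde1b, reached only 15.2 CPM at most, in the Cdh9 class.

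Pde3a and Pde3b code the cAMP phosphodiesterases that cGMP inhibits, and they differed in how far they followed a class. The Mrgprd class was set by Mrgprd, a receptor gene of non-peptidergic nociceptors, together with Grik1 and Lpar3. Their medians in the class were 86.6, 8653 and 268 CPM, so Grik1 gave most of the marker UMIs. Pde3a was found mainly in this class. It held 52.1 CPM there in the control and 62.9, 29.9, 39.4 and 43.3 CPM at IOT days 2, 7, 21 and 75. After facial injury it held 44.8 CPM and with scratch lesions 29.2 CPM. Every other class had a median of 5.67 CPM or less, no library of them came above 13.5 CPM (the Il31ra class), and the difference was 3.57 ± 0.13 (log2; edgeR adjusted p = 4.66e-36). In Drop-seq the Mrgprd class was again the highest but held only 8.80 CPM. Pde3b spread over the classes, from a median of 18.6 CPM (Mrgprd) to 39.8 CPM (Trpm8), and the class with the highest median was first in none of the 7 libraries.

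The cAMP-specific PDE4 family, the targets of rolipram, has 4 genes. The Il31ra class was set by Il31ra, Htr1f, Cysltr2 and the itch peptide genes Sst and Nppb. Htr1f was the most abundant there, at a median of 1709 CPM against 294 CPM for Il31ra and 45.8 to 69.9 CPM for the rest. Pde4c gave the largest class difference of all members, 5.82 ± 0.14 on the log2 scale in this class (edgeR adjusted p = 1.42e-46). Its level there was 153 CPM in the control, 186, 311, 206 and 98.5 CPM at IOT days 2, 7, 21 and 75, 214 CPM after facial injury and 235 CPM with scratch lesions, and Drop-seq had 158 CPM. The Tac1 class followed with 7.85 to 29.7 CPM, and the medians of the remaining classes were between 0 (Mrgpra3) and 5.32 CPM (Mrgprd). Pde4d was highest in the Cdh9 class in all 7 libraries (1257, 1724 and 2380 CPM as lowest, median and highest; 1.86 ± 0.06) and lowest in the Mrgpra3 class (median 299 CPM). Pde4b was highest in the Cadps2 class (median 811 CPM; 0.94 ± 0.06) and lowest in the Mrgprd class (164 CPM). Pde4a reached 22.6 CPM in the Trpm8 class and 7.55 CPM in the Mrgprd class at the median.

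**Figure D2:**
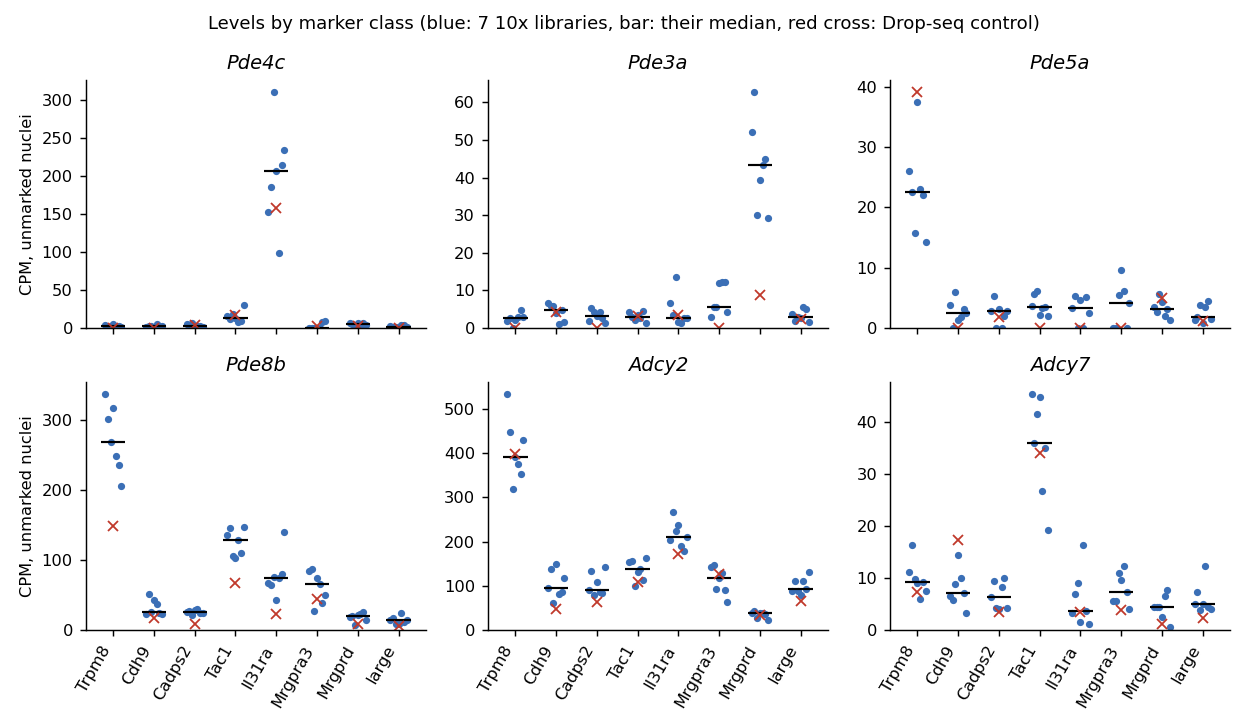
CPM of 6 members in unmarked nuclei by marker class (axes start at 0; blue points are the 7 10x libraries, black bars their median, red crosses the Drop-seq control). The Pde4c points of the Il31ra class, 98.5 to 311 CPM, and the Pde3a points of the Mrgprd class, 29.2 to 62.9 CPM, lie above those of every other class.

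PDE8 enzymes bind cAMP with high affinity and resist the general inhibitor IBMX, and their 2 genes marked different classes. Pde8b was highest in the Trpm8 class in every library (207, 269 and 338 CPM as lowest, median and highest), above the Tac1 class at 103 to 147 CPM. The Trpm8 difference was 2.83 ± 0.09 (log2; edgeR adjusted p = 4.58e-39), and the large class had the lowest median, 14.3 CPM. Pde8a was highest in the Mrgprd class (31.2, 34.4 and 48.8 CPM; 2.34 ± 0.12), above the Tac1 class at 13.2 to 22.4 CPM in every library. PDE7, the other cAMP-specific family, varied less: Pde7a and Pde7b were both highest in the Il31ra class, with medians of 63.3 and 44.3 CPM and differences of 0.43 ± 0.10 and 0.70 ± 0.13.

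Among the enzymes that act on cGMP, Pde5a, the target of sildenafil, was called higher only in the Trpm8 class. It held 26.0 CPM there in the control, 22.6, 15.8, 37.4 and 23.0 CPM at IOT days 2, 7, 21 and 75, 22.0 CPM after facial injury and 14.2 CPM with scratch lesions. No library of the second class, Mrgpra3, exceeded 9.59 CPM, the difference was 2.98 ± 0.21 (edgeR adjusted p = 1.95e-20), and Drop-seq gave 39.2 CPM in the Trpm8 class. Pde11a and Pde10a, which act on both nucleotides, were highest in the Mrgprd class, Pde11a at 312, 400 and 527 CPM and Pde10a at 99.6, 166 and 234 CPM (lowest, median and highest). Their differences were nearly equal, 1.49 ± 0.08 and 1.51 ± 0.08. The classes differed at the other end: Pde11a was lowest in the large class (median 43.7 CPM) and Pde10a in the Trpm8 class (29.5 CPM).

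The photoreceptor genes were at low levels that moved with the library. Pde6a, the alpha subunit of the rod enzyme, had its highest median in the Mrgpra3 class (25.6 CPM) but ran from 2.44 to 116 CPM there, and the cone subunit Pde6c ran from 10.7 to 45.6 CPM in the Tac1 class. Both passed in some classes (Pde6a higher in the Mrgpra3 class by 0.98 ± 0.19, Pde6c in the Tac1 class by 0.98 ± 0.15). Pde6d, widely expressed outside the retina, was highest in the Mrgprd class in all 7 libraries (49.6, 63.2 and 123 CPM; 0.78 ± 0.09). The inhibitory subunits Pde6g and Pde6h did not exceed a median of 1.03 CPM in any class.

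By class, of 28 members tested in each, members were called higher or lower in the Trpm8 class (7 and 11), Cdh9 (11 and 5), Cadps2 (8 and 7), Tac1 (12 and 8), Il31ra (11 and 4), Mrgpra3 (8 and 4), Mrgprd (8 and 12) and large class (2 and 19). Over all genes, 38.7, 29.6, 43, 48.4, 33.7, 28.2, 50.2 and 55.7% were called in either direction, in the same order of classes. The large class thus had the most lower calls, with only Adcy1 and Adcy9 called higher there. In the large class all genes divided into 3425 higher and 3231 lower. For 7 members (Adcy2, Adcy7, Pde3a, Pde4c, Pde5a, Pde8a and Pde8b) the top class lay above the second in every library with no overlap. The top and second class were picked by the medians of these same libraries. The share over all genes was not counted, so this describes the 7 genes and not the family. In the Drop-seq control the same class was highest for 21 of 31 listed members.

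The IOT libraries were then used to ask how injured nuclei differ from the other nuclei of the same ganglia. Of 29 members tested, 3 rose in marked nuclei (Pde1a, Pde1c and Pde6a) and 7 fell (Adcy5, Adcy6, Adcy7, Pde3a, Pde4c, Pde8b and Pde11a). Over all 14273 genes tested, 9.92% rose and 7.76% fell, 17.7% in either direction, and the median log2 difference was −0.24 for members against −0.00 for all genes. These values come from edgeR's quasi-likelihood test with the library as a block and 4 residual degrees of freedom. That test draws each gene's spread toward the trend over all genes. The p-values thus rest on the spread between libraries of pooled mice, largely as shared over genes. CPM of marked and unmarked nuclei did not overlap between the 4 libraries for 8 members, against 6.54% of all genes. Scaled by library size alone, 2 rose and 10 fell. With the library left out of the model only Pde1a and Pde11a passed. Markers of some other cells were higher in marked nuclei. The 8 satellite glia markers summed to 446, 515, 625 and 834 CPM in marked nuclei at days 2, 7, 21 and 75. In unmarked nuclei they summed to 317, 320, 496 and 738 CPM. The 8 leukocyte markers summed to 210, 213, 70.1 and 153 CPM against 154, 168, 60.8 and 128 CPM, and the 8 fibroblast markers to 155 to 187 CPM against 101 to 134 CPM. The 8 Schwann cell markers were lower, at 1057, 1352, 538 and 638 CPM in marked against 1130, 1399, 574 and 758 CPM in unmarked nuclei. The 5 red cell markers were also lower, at 57.7, 27.8, 37.7 and 169 against 60.4, 39.6, 48.5 and 211 CPM. The 8 vascular markers were mixed, at 126, 119, 63.0 and 98.5 against 118, 121, 69.8 and 119 CPM. Their part in the member differences was not tested.

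**Figure D3:**
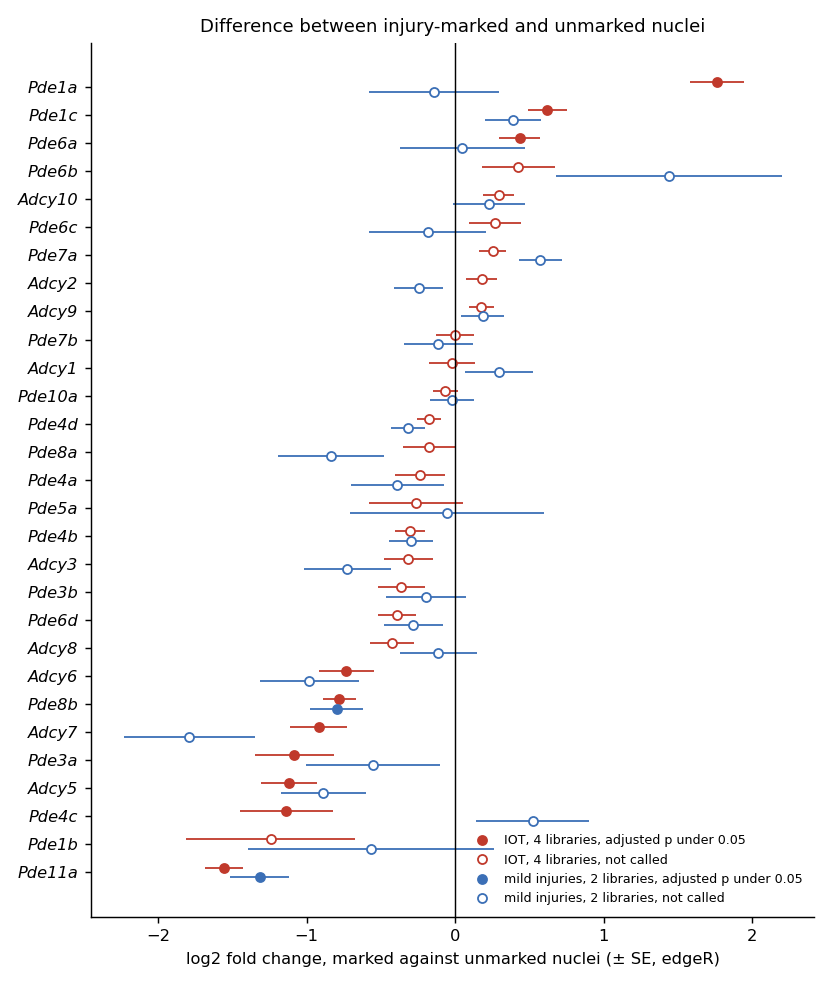
Log2 difference between marked and unmarked nuclei for the tested members (points, with bars of 1 SE from the edgeR fit; filled where the adjusted p passed), after IOT in red and after the mild injuries in blue. Pde1a lies at 1.76 and Pde11a at −1.56 after IOT, the ends of the range.

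Pde1a showed the largest rise, 1.76 ± 0.18 on the log2 scale or 3.40-fold (edgeR adjusted p = 2.42e-05). Marked nuclei held 88.4, 67.0, 70.7 and 24.1 CPM at days 2, 7, 21 and 75, and unmarked nuclei of the same libraries 21.2, 16.9, 20.4 and 14.0 CPM. All 4 marked values were above all 4 unmarked values, and day 75 was the lowest of the marked ones. Most marked nuclei of that day carried Sema6a without Atf3. Marked nuclei of the control, facial injury and scratch lesions libraries held 8.94, 16.1 and 10.1 CPM, from 6, 12 and 13 UMIs.

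Pde1c also rose, by 0.62 ± 0.13 (edgeR adjusted p = 0.00433), from 372, 270, 404 and 339 CPM in unmarked to 734, 459, 521 and 378 CPM in marked nuclei at days 2, 7, 21 and 75. The ranges overlapped between libraries, but marked nuclei were higher in 4 of 4. Pde6a passed narrowly (0.43 ± 0.14; edgeR adjusted p = 0.0407), with 87.9, 73.6, 10.6 and 22.7 CPM in marked and 57.2, 55.5, 8.63 and 24.0 CPM in unmarked nuclei, so it was higher in 3 of 4. Its call was lost without day 2, 7 or 21, the facial injury or the scratch lesions library, by DESeq2, and with a mark of at least 1 UMI (0.13).

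Pde11a fell the most, by 1.56 ± 0.13 on the log2 scale, or 2.94-fold (edgeR adjusted p = 3.29e-06). Marked nuclei held 78.8, 52.3, 43.0 and 128 CPM at days 2, 7, 21 and 75, and unmarked nuclei 246, 185, 188 and 267 CPM. The 2 sets did not overlap. Pde8b fell by 0.78 ± 0.11 (edgeR adjusted p = 0.000233): 52.5, 22.1, 43.6 and 52.2 CPM in marked against 86.9, 60.6, 79.4 and 77.8 CPM in unmarked nuclei, again with no overlap.

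Of the 9 cyclases, 3 fell. Adcy5 dropped by 1.12 ± 0.19 (edgeR adjusted p = 0.00105), with 19.9, 8.99, 8.83 and 25.9 CPM in marked and 35.5, 46.8, 30.3 and 42.0 CPM in unmarked nuclei. Adcy7 dropped by 0.92 ± 0.19 (edgeR adjusted p = 0.00425), with 7.43, 4.09, 7.07 and 7.13 CPM against 13.6, 13.4, 14.2 and 11.5 CPM. Neither gene's values overlapped between the states. Adcy6 dropped by 0.73 ± 0.19 (edgeR adjusted p = 0.0141), from 12.9, 14.2, 15.5 and 10.9 CPM in unmarked to 7.43, 7.36, 11.2 and 5.35 CPM in marked nuclei, where the ranges overlapped. Its call was lost without day 2, by DESeq2 (adjusted p = 0.0716), with a mark of at least 1 Atf3 UMI (0.101), among nuclei of 2000 to 6000 UMIs (0.218) and in the 7 other classes (0.152), and Adcy7 lost its call with the Atf3 mark (0.0902). The other tested cyclases did not pass: Adcy1 differed by −0.02 ± 0.15, Adcy2 by 0.18 ± 0.11, Adcy3 by −0.32 ± 0.17, Adcy8 by −0.43 ± 0.15, Adcy9 by 0.17 ± 0.08 and Adcy10 by 0.29 ± 0.10.

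Pde3a and Pde4c fell from low levels. Pde3a dropped by 1.08 ± 0.27 (edgeR adjusted p = 0.0123), with 3.59, 3.27, 2.36 and 6.69 CPM in marked nuclei, from 15, 4, 4 and 15 UMIs, against 10.6, 6.79, 7.21 and 9.13 CPM. Pde4c dropped by 1.14 ± 0.31 (edgeR adjusted p = 0.0217), with 7.67, 3.27, 5.30 and 3.57 CPM, from 32, 4, 9 and 8 UMIs, against 12.6, 14.7, 15.0 and 8.37 CPM. Marked and unmarked values did not overlap for either, but Pde3a lost its call without day 2 or 21 and Pde4c without day 7 or 21. With the Atf3 mark Pde4c differed by −0.32 (edgeR adjusted p = 0.384). Among the 19 tested members that did not pass, Pde6d (−0.39 ± 0.13; edgeR adjusted p = 0.0506) and Pde4b (−0.31 ± 0.10; edgeR adjusted p = 0.0510) came nearest, and the most abundant member, Pde4d, differed by −0.18 ± 0.08. Without day 75, Pde6d (−0.49) and Pde4b (−0.44) passed, as did Pde3b (−0.56) and Pde6c (0.47).

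**Figure D4:**
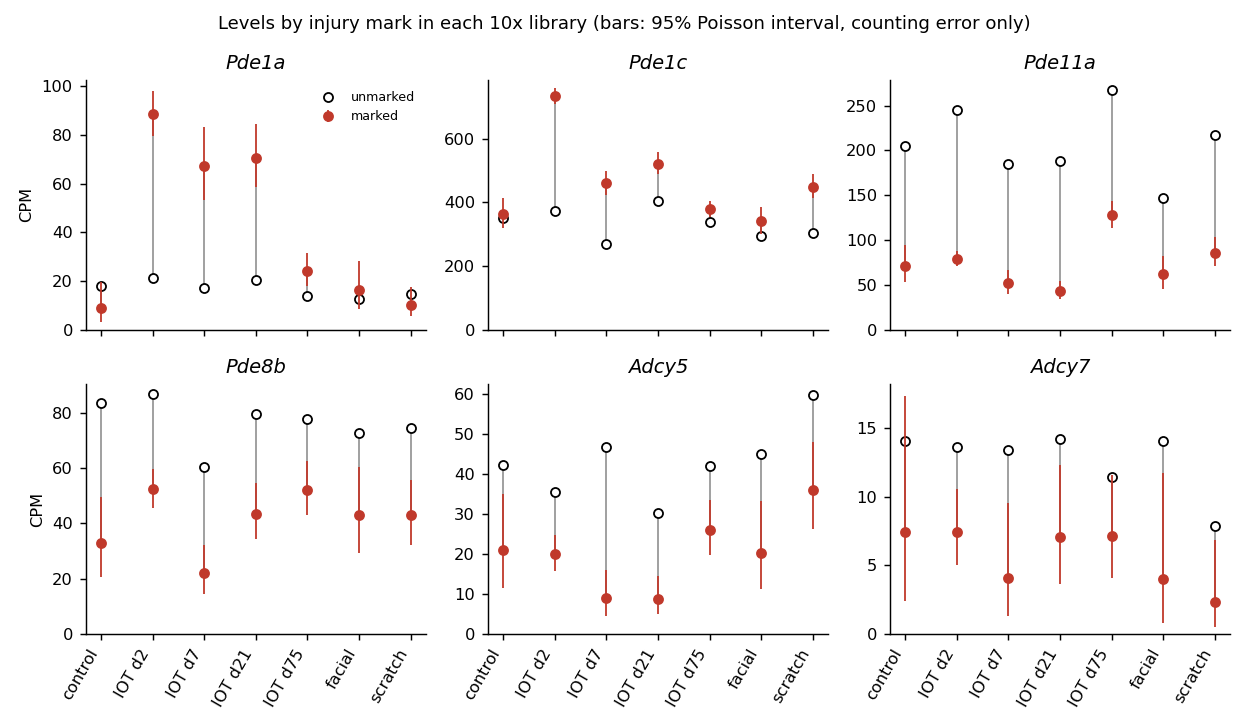
CPM in unmarked and marked nuclei of each 10x library for 6 members (axes start at 0; open points unmarked, red points marked, with 95% Poisson bars that cover counting error only). Pde1a is higher in marked nuclei of the 4 IOT libraries, and Pde11a and Pde8b are lower in marked nuclei of all 7 libraries.

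Several of these members are also those that differ most between classes, and the classes were not equally common among marked nuclei. In the IOT libraries the Mrgprd class made up 2.1 to 3.8% of marked against 11.4 to 17.5% of unmarked nuclei, the Tac1 class 2.1 to 5.2% against 12 to 14.7%, and the Il31ra class 20.5 to 29.5% against 3.6 to 6.3%. The last rests largely on its marker Htr1f, which many marked nuclei carried. The Mrgprd class rests largely on its marker Grik1, which the study lists as down-regulated in injured neurons. Whether lost marker RNA or the kind of neuron injured set these shares was not tested, and in summed nuclei fewer cells of a class and less RNA per cell cannot be told apart.

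Within a class, the state difference of Pde11a was still seen in most. Summed over the 4 IOT libraries, Pde11a held 199 CPM in marked and 407 CPM in unmarked nuclei of the Tac1 class, 130 and 192 CPM in the Cadps2 class, 90.0 and 193 CPM in the Trpm8 class, 65.0 and 214 CPM in the Cdh9 class and 64.7 and 162 CPM in unclassed nuclei, each lower in 4 of 4 libraries. In the Mrgprd class it held 289 and 465 CPM (lower in 3 of 4). The large class went the other way, 70.7 against 54.2 CPM, with no call (0.17 ± 0.21; edgeR adjusted p = 0.889). The fall of Pde8b was seen in fewer classes. It was lower in 4 of 4 libraries in the Trpm8 class (194 against 285 CPM) and the Il31ra class (42.0 against 62.9 CPM). The same held in unclassed nuclei (46.0 against 75.9 CPM). Marked and unmarked values were 121 and 122 CPM in the Tac1 class, 40.6 and 41.7 in Cdh9 and 23.7 and 28.0 in Cadps2. Pde8b held 24.4 and 19.7 CPM in the Mrgprd class and 17.9 and 14.6 in the large class.

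Pde1a was higher in marked nuclei of the Il31ra class (144 against 20.5 CPM), the Cadps2 class (44.1 against 20.8 CPM), the large class (19.2 against 5.97 CPM) and unclassed nuclei (55.8 against 19.9 CPM), in 4 of 4 libraries each. In the Tac1 class, its resting peak, the values were 36.5 and 28.3 CPM and it was higher in 2 of 4. Pde1c was higher in 4 of 4 libraries in the Mrgprd class, its resting low (410 against 129 CPM), and equal in the large class (233 and 233 CPM). In the Cdh9 class it was lower in 3 of 4 (568 against 655 CPM), and in the Trpm8 class lower in 3 of 4 although the sums were 605 and 590 CPM. For Adcy5 the gap was small inside its own classes, 77.7 against 95.9 CPM in the Tac1 class and 73.1 against 87.2 CPM in the Mrgprd class. In the Mrgprd class, its main one, Pde3a held 48.8 CPM in marked and 44.4 CPM in unmarked nuclei. The marked value came from 12 UMIs, and Pde3a was lower in 2 and higher in 2 libraries. Pde4c, by contrast, held 18.4 against 173 CPM in the Il31ra class. As marked nuclei of that class rest largely on Htr1f, its Pde4c and Pde1a values may compare different kinds of neuron, which was not tested.

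Fits were also restricted to part of the nuclei. Within the 7 other classes summed as 1 group, 9 members passed after IOT (18.9% of all genes tested there passed), within unclassed nuclei 6 (14.8% of genes), and within the large class, which had 23 to 88 marked nuclei an IOT library, none (1.26% of genes). The summed 7 classes were not equally common by state. The Il31ra class gave 486 marked and 654 unmarked nuclei, and the Mrgprd class 49 and 1619. Class share and RNA per cell therefore cannot be told apart in that group either. Pde1a, Pde1c, Pde8b and Pde11a passed in the same direction in the 7 other classes and in unclassed nuclei. Adcy5 passed in the first (−1.37 ± 0.19) but not in the second. In the large class Pde8b (0.08) and Pde6a (−0.07) had, like Pde11a, the opposite sign to the fit over all nuclei, without a call.

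The mild injuries asked whether skin damage gives the same state difference. Marked nuclei were 2.32% of the facial injury library and 4.10% with scratch lesions, beside 2.56% of the 10x control without surgery. Whether the marked nuclei after facial injury exceed those of a ganglion without surgery was not tested. None of the 29 members rose and 2 fell, Pde11a by 1.32 ± 0.20 (edgeR adjusted p = 0.00377) and Pde8b by 0.80 ± 0.18 (edgeR adjusted p = 0.0319); 1.49% of all genes rose and 1.04% fell, 2.53% in either direction. Pde11a held 61.6 and 85.8 CPM in marked and 147 and 217 CPM in unmarked nuclei after facial injury and with scratch lesions. Pde8b held 42.9 CPM in marked nuclei of each against 72.8 and 74.7 CPM. Class shares differed by state here too. After facial injury and with scratch lesions, the large class made up 16.9 and 13.1% of marked against 5.81 and 9.16% of unmarked nuclei. The Mrgprd class made up 4.98 and 6.54% against 14.2 and 14.9%, and the Tac1 class 3.48 and 5.61% against 13.0 and 13.3%. Fewer cells of a class and less RNA per cell cannot be told apart here either. In the few marked nuclei of the 10x control, which had no surgery, both genes were also lower. Pde11a held 71.5 against 205 CPM and Pde8b 32.8 against 83.5 CPM. The large class made up 36.6% of marked and 8.43% of unmarked nuclei of that control, and the Mrgprd class 1.79 and 12.6%. In unmarked nuclei the large class had the lowest medians of both genes (43.7 and 14.3 CPM). Adcy7 (−1.79 ± 0.44; edgeR adjusted p = 0.0502) and Pde7a (0.57 ± 0.14; edgeR adjusted p = 0.0518) came nearest among the rest. Without the facial injury library Pde11a had an adjusted p of 0.103 and Pde8b of 0.273, and without scratch lesions 0.298 and 0.517, in edgeR fits where the remaining mild library is assumed to vary like the IOT libraries. Pde8b also lost its call without IOT day 2 or 21 (0.0522 and 0.0566). Without IOT day 7 or 75, Adcy5, Adcy7 and Pde7a passed as well, and Pde7a also when scaled by library size alone or by DESeq2's size factors, so that 1 rose and 2 fell.

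A direct test of IOT against the mild injuries called no member, with 0.0140% of all genes called (0.00701% higher and 0.00701% lower) and 3 members under an unadjusted p of 0.05 (DESeq2 also called 0). Pde1a had the widest gap, 1.76 after IOT and −0.14 ± 0.44 after mild injury, a difference of 1.90 ± 0.44 (edgeR adjusted p = 0.49). Without IOT day 75 this difference was 2.13 with an edgeR adjusted p of 0.00152. The mild arm has 2 libraries, 1 of them from transgenic mice, so a difference between IOT and mild injury is not shown either way for any member.

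No member changed with time after IOT by the slope of the state difference on log2 of the day, where 0.0490% of all genes passed, 7 members had an unadjusted p under 0.05 and 3 residual degrees of freedom remained. Pde1c had a slope of −0.19 per doubling of the day (edgeR adjusted p = 0.14), Pde1a of −0.23 (0.30) and Adcy1 of 0.17 (0.37). Without day 2 the slopes of Adcy1, Adcy5, Pde1a and Pde1c passed, and without day 7 that of Pde1c. At day 75 most marked nuclei carried Sema6a without Atf3.

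Other genes of cyclic nucleotide signalling were counted by fixed lists. Of 64 listed genes 47 were tested after IOT, 10 rose and 8 fell, beside 9.92% and 7.76% of all genes, while after mild injury 1 rose and 2 fell, beside 1.49% and 1.04%. Of 6 protein kinase A subunits 2 fell: the regulatory subunit gene Prkar2b by 1.47 (edgeR adjusted p = 1.81e-05) and Prkar2a by 0.23. Prkar2b held 59.2, 34.3, 51.8 and 103 CPM in marked and 155, 188, 161 and 205 CPM in unmarked nuclei at days 2, 7, 21 and 75, with no overlap, and it fell after mild injury too (by 1.198). Of the 3 kinase inhibitor genes, Pkib rose by 0.87 after IOT and 1.21 after mild injury, Pkia fell in both, and Pkig fell after IOT by 0.52.

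Of 7 G protein alpha genes Gnal, which stimulates cyclases, and Gnao1 fell after IOT by 0.67 and 0.70. Among the 10 tested anchoring proteins, which hold protein kinase A in place, Akap6 and Akap13 rose by 0.71 and 0.40. The CREB family had 3 of 6 rise (Creb1 by 0.27, Crem by 0.37 and Atf1 by 0.46), each near the threshold. Of the 2 Epac genes Rapgef4 rose by 0.25, the cAMP exporter gene Abcc4 rose by 0.69, and among the channel genes Cngb3 rose by 2.02 and Hcn3 fell by 0.44. On the cGMP side the kinase gene Prkg1 fell by 0.49, and neither of the 2 guanylyl cyclase genes tested passed.

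Some members stood apart by library rather than by class or state. In unmarked nuclei Pde6a held 57.2 and 55.5 CPM at IOT days 2 and 7, 24.0 CPM at day 75, and 2.59 to 10.4 CPM in the 4 remaining libraries. Pde6b held 27.3 and 31.2 CPM at days 2 and 7 and 1.22 to 5.73 CPM elsewhere, Adcy10 81.6 and 59.0 CPM against 12.4 to 30.8 CPM, and Pde10a 131 and 135 CPM against 45.4 to 77.5 CPM. Both of these libraries were at least 1.5 times the highest other 10x library for 5 members (these 4 and the sparse Pde9a), a limit chosen after the values were seen, against 3.21% of all genes. Both libraries lay above every other 10x library in all 8 classes for Adcy10, Pde6a and Pde10a and in 7 classes for Pde6b.

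There was 1 library for each day, so day and library cannot be told apart and no test was made. Markers of other cells moved with these libraries: the summed level of all 8 leukocyte markers was 154 and 168 CPM in unmarked nuclei at days 2 and 7, 128 CPM at day 75 and 42.9 to 60.8 CPM elsewhere. The 8 Schwann cell markers summed to 1130 and 1399 CPM against 545 to 1037 CPM, and the 8 vascular markers to 118 and 121 CPM, 119 CPM at day 75 and 59.3 to 87.9 CPM elsewhere. The lists did not all move that way: the satellite glia markers were lowest in these libraries (317 and 320 CPM against 461 to 963 CPM), the red cell markers held 60.4 and 39.6 CPM against 48.5 to 211 CPM, and the fibroblast markers 134 and 122 CPM against 96.3 to 128 CPM. Their part in the levels of these members was not tested. In the Drop-seq control Pde6a, Pde6b and Adcy10 were at 0.776, 1.16 and 1.94 CPM over all nuclei.

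**Figure D5:**
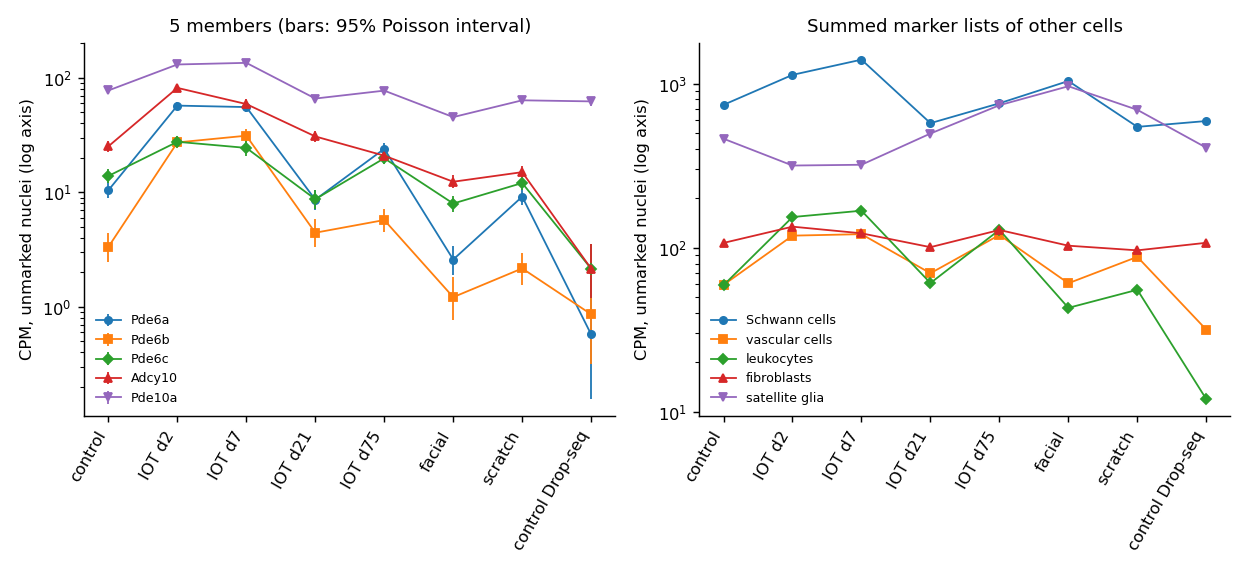
CPM in unmarked nuclei of the 7 10x libraries and the Drop-seq control, on log axes, for 5 members (left, with 95% Poisson bars) and for the summed marker lists of 5 other cell types (right). Pde6a and Pde6b are highest at IOT days 2 and 7, at 57.2 and 55.5 CPM and at 27.3 and 31.2 CPM.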

How the data were processed

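The authors aligned reads to an mm10 pre-mRNA reference, in which introns count as gene (Cell Ranger 2.1.0, STAR 2.5.3a and Seurat 2 are named in the submitters' processing notes), filtered nuclei and deposited counts of UMIs per gene and nucleus. From these, nuclei were summed by library, class and injury mark. A nucleus joined the class with the smallest Poisson tail given at least 2 marker UMIs and at least 2 times the number its depth predicts; 2792 classed nuclei sat at that minimum. No doublet caller was run; 6174 nuclei passed 2 or more class rules and were left out in an alternative. Sums were tested with edgeR 4.0.16 (R 4.3.3; filterByExpr, TMM, library as a block, Benjamini-Hochberg at 0.05), after the code was tested on simulated data. The study's rank test takes nuclei as replicates and was not used. The Drop-seq table stayed outside the fits. DESeq2 1.42.0, other scalings, filters, marks and left-out libraries were alternatives. All members are named, and of each pathway list at most 4 genes, the called ones of largest change after IOT; 1 listed gene that these counts include is not reported here by name. Members and lists were chosen with earlier results of these data known. Libraries held 9135460 to 22003842 UMIs; Poisson intervals cover counting error only. Gene spans come from GENCODE M21.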

Additional observations from a re-analysis of the deposited data

Results flagged for a closer look

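A library far from the others of its kind by Dixon's test was found in 5 of 56 sets of member values, while chance alone gives about 1 in 20. In the Tac1 class Adcy3 was at 21.9 CPM at IOT day 2, with the 6 other 10x libraries between 27.8 and 32.7 CPM. In the Mrgprd class Adcy6 was at 15.6 CPM at IOT day 75, with the others between 24.5 and 30.0 CPM. Pde4a was at 85.0 CPM in the Trpm8 class at IOT day 7, where the others held 16.2 to 25.0 CPM. Of the log2 ratios of marked to unmarked nuclei in the 4 IOT libraries, Adcy10 stood apart at day 21 (0.54, the others 0.12 to 0.18) and Pde4d at day 2 (−0.36, the others −0.18 to −0.17).

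Pde2a, which codes a phosphodiesterase stimulated by cGMP, had 802 UMIs (104 CPM) in the Drop-seq control, which no comparison used, against 3 UMIs (0.171 CPM) in the 10x control and 22 UMIs in all 10x libraries. Of 2229 symbols at 100 CPM or more in the Drop-seq control, only Pde2a and Rps6 (115 CPM against 0.628 CPM) were under 1 CPM in the 10x control. The cause was not tested.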

How the results depend on the processing

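For class differences, the 137 member calls became 93 to 140 under the other settings (93 without the replicate block) and 125 to 135 with a library left out. Adcy10 in the Il31ra class turned to −1.05 without Htr1f, an alternative chosen after seeing the data. After IOT the 10 member calls became 2 without the replicate block (249 of all genes, from 2524), 0 in the large class only (113) and 6 in unclassed nuclei only, 8 to 13 under the other settings and 7 to 14 with a library left out. The large class had counts to test 17 members, among them only Pde1c, Pde6a, Pde8b and Pde11a of the 10. In the large class only, Pde6a turned to −0.071, Pde8b to 0.080 and Pde11a to 0.17. After mild injury the 2 calls became 1 by DESeq2, 0 without the replicate block (0 of all genes, from 361) and 0 to 5 with a library left out. For IOT against mild injury the 0 member calls became 1 with a mark of at least 1 Atf3 UMI (Pde1a, 31 genes) and 0 to 1 with a library left out (0 to 33 genes, from 2). For the time trend the 0 calls became 1 without the low-count filter (60 genes, from 7), 1 with the Atf3 mark (28 genes) and 0 to 4 with a library left out (0 to 546 genes); the gene was Pde1c in both. The causes of these moves were not tested. Adcy5, Adcy7, Pde1a, Pde1c, Pde8b and Pde11a passed after IOT with any library left out. There is 1 library a group, so no replicate number pairs libraries, and the block is the library itself. Marked nuclei were few and deep: 201 to 826 an injury library, so members under about 10 CPM rest on few UMIs there.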
